A study of Caenorhabditis elegans with 9 samples.

Results

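The right part of the X chromosome of Caenorhabditis elegans (right X below) was taken as every X-linked gene whose start lies at or beyond 12000000 bp on the WS220 genome, out to the end of the last gene at 17718641 bp. The table lists 870 such genes over 5.7 Mb. A gene was tested where it had at least 10 reads in at least 3 of the 9 libraries, which left 618 right X genes (71.0% of those listed), out of 13425 genes tested in the whole genome. A further 1455 tested genes lay on the rest of the X and 11344 on chromosomes I to V. Position defined the region and read depth decided which of its genes were tested, without use of strain labels.

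Worms equalize X-linked expression between the sexes by dosage compensation, in which a complex binds both X chromosomes of XX hermaphrodites and lowers transcription from them. Part of that complex is condensin DC, a condensin in which DPY-27 takes the place of the usual SMC-4 subunit. SMC proteins are ATPases that bind and hydrolyse ATP in cycles, and an EQ substitution in the Walker B motif is known to slow hydrolysis. A chromosome-wide loss of compensation would be seen as X-linked genes moving up relative to autosomal genes.

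The study made mRNA-seq libraries of mixed embryos, 3 from each of 3 strains. DPY-27(EQ)::GFP embryos (strain KB01) carried the ATPase-mutant fusion and DPY-27::GFP embryos (strain MK14) carried the intact fusion, each as a single-copy insertion on chromosome II under the heat-inducible hsp-16.41 promoter. Wild-type embryos (N2) carried neither. Every strain, with or without a transgene, had parents that were given a 30 min heat shock (35°C) and then 2 h at room temperature before their embryos were collected, and the endogenous dpy-27 gene was present in every strain. Neither transgenic strain therefore lacks endogenous DPY-27, and each is 1 inserted line. The labels do not say whether the libraries of a strain came from separate cultures, so the p-values measure the spread between these libraries, which may be technical. In bulk embryos, fewer cells of a type and less RNA per cell cannot be told apart.

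Reads counted on genes ranged between 7573682 and 21281027 in DPY-27(EQ)::GFP, between 7062182 and 9582838 in DPY-27::GFP and between 17107945 and 23536013 in wild type. Reads on no annotated feature came to 0.037 to 0.083 per gene read in DPY-27(EQ)::GFP and 0.035 to 0.041 in those of DPY-27::GFP, against 1.04 to 1.09 in wild type. Library names begin with SEA for the DPY-27::GFP libraries and DPY-27(EQ)::GFP replicates 1 and 2, and with LAS for DPY-27(EQ)::GFP replicate 3 and all of wild type, so prefix and strain cannot be told apart between DPY-27::GFP and wild type. Transcripts of dpy-27 itself, a gene the transgenes duplicate, stood at 591, 516 and 900 CPM (gene reads scaled to the TMM-adjusted library size) in DPY-27(EQ)::GFP and 803, 449 and 819 CPM in DPY-27::GFP, against 462, 471 and 485 CPM in wild type. Against wild type its log2 fold change reached 0.50 for DPY-27(EQ)::GFP (edgeR adjusted p 0.206) and 0.55 for DPY-27::GFP (edgeR adjusted p 0.161), and replicate 2 of DPY-27::GFP lay below all wild-type libraries.

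Right X gave a small and steady part of the transcriptome. It took 3.79% to 4.12% of gene reads in libraries of DPY-27(EQ)::GFP, 3.73% to 4.13% in those of DPY-27::GFP and 3.84% to 4.06% in those of wild type, so the ranges of the 3 strains overlapped. Compared in TPM, which scales for transcript length, the median right X gene stood at 0.79, 0.72 and 0.79 of the median autosomal gene in the DPY-27(EQ)::GFP libraries. DPY-27::GFP libraries gave ratios of 0.77, 0.81 and 0.71, with 0.73, 0.78 and 0.75 in the wild-type libraries. Means of 0.766 ± 0.044, 0.762 ± 0.053 and 0.754 ± 0.025 (SD, n = 3 each, in that order) thus lay closer together than libraries of 1 strain did. For the rest of the X the ratio was 0.712 ± 0.023 in DPY-27(EQ)::GFP, 0.686 ± 0.082 in DPY-27::GFP and 0.661 ± 0.045 in wild type.

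Levels within right X spanned several orders of magnitude. Over the 9 libraries, 51 members averaged under 1 TPM, 208 between 1 and 10 TPM, 299 between 10 and 100 TPM and 60 at least 100 TPM, with a median of 14.2 TPM. A pair of genes held a large share of the reads: let-2, which encodes an alpha chain of type IV collagen in basement membranes, took 8.37% of right X reads, and his-24, a linker histone H1 gene, took 7.59%. The 10 genes with most reads together took 30.1%. They include ain-1, a GW182-family partner of the microRNA Argonautes, and alg-1, 1 of those Argonautes.

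Of the 252 genes not tested, 2 had no read in any library and 151 reached 10 reads in none. Another 80 reached 10 reads in a single library, which for 72 of them was wild-type replicate 1. That library detected 710 right X genes at 10 or more reads, against 522 to 626 in the other 8 libraries. In the deposited TPM values, which do not follow from the counts for every gene, 16 of the 252 averaged 1 TPM or more and the highest averaged 5.32 TPM. Among the 618 members, 502 (81.2%) had 10 or more reads in every library, and the filter therefore kept a minority through only some libraries.

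As a region, right X did not move apart from the autosomes in either transgenic strain by more than its replicates did. For each library, each gene's log2 CPM was taken as a deviation from its own 9-library mean, and the median of autosomal genes was subtracted from that of right X genes. The value was 0.081, -0.062 and 0.104 in DPY-27(EQ)::GFP replicates 1 to 3. DPY-27::GFP replicates 1 to 3 gave 0.011, 0.085 and -0.109, and those of wild type -0.036, 0.0043 and -0.081. All 3 strains overlapped, and both transgenic strains held a replicate below the highest wild-type one.

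DPY-27(EQ)::GFP averaged 0.041 ± 0.090 and wild type -0.037 ± 0.043 (SD, n = 3 each), a right X shift of 0.078 on the log2 scale (two-sided exact permutation test, p = 0.3, adjusted over 3 comparisons 0.6). DPY-27::GFP averaged -0.0044 ± 0.098, a shift of 0.033 against wild type (exact permutation p = 0.6, adjusted 0.6). Between the transgenic strains the shift was 0.045, DPY-27(EQ)::GFP being higher (exact permutation p = 0.6, adjusted 0.6). With 3 libraries against 3 the smallest p this test can give is 0.1, so none of these comparisons could pass 0.05. Taking all 6 transgenic libraries (0.018 ± 0.088) against the 3 of wild type allowed a smallest p of 0.0119, and gave a shift of 0.056 with an exact permutation p of 0.31.

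The sign of the DPY-27::GFP shift was not settled. It was -0.027 from the deposited TPM values, -0.037 with chromosome V alone as the autosomal reference and -0.022 without DPY-27::GFP replicate 2, against 0.088 without DPY-27::GFP replicate 3. Within the LAS libraries, DPY-27(EQ)::GFP replicate 3 stood 0.142 above the wild-type mean, a single library with no test. Within the SEA libraries, the DPY-27(EQ)::GFP shift over DPY-27::GFP was 0.014.

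**Figure D1:**
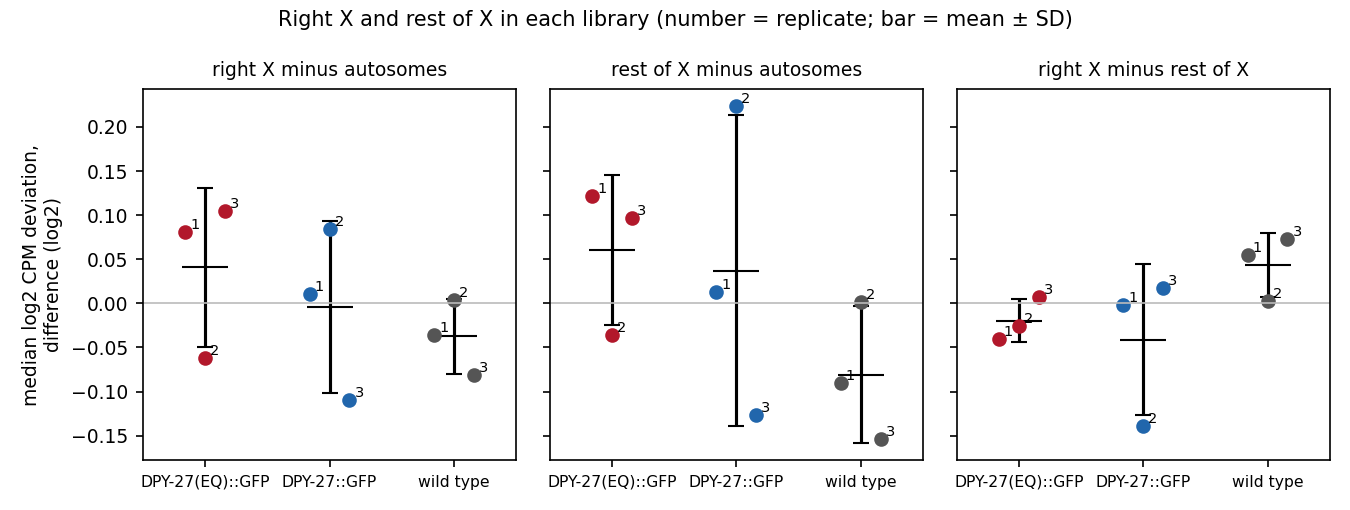
Median log2 CPM deviation of right X minus autosomal genes, of the rest of the X minus autosomal genes, and of right X minus the rest of the X, for each library (points, with replicate number) and each strain (bar, mean ± SD, n = 3). Strains overlap in the first 2 panels, and in the last the wild-type mean of 0.043 lies above the means of -0.020 in DPY-27(EQ)::GFP and -0.041 in DPY-27::GFP.

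Right X differed from wild type by less than the rest of the X did, within replicate error. The rest of the X stood 0.142 higher relative to autosomes in DPY-27(EQ)::GFP than in wild type (exact permutation p = 0.2) and 0.118 higher in the DPY-27::GFP strain than in wild type (exact permutation p = 0.4). Right X minus the rest of the X was -0.040, -0.026 and 0.0074 in DPY-27(EQ)::GFP, -0.0019, -0.139 and 0.017 in DPY-27::GFP, and 0.055, 0.0031 and 0.073 in wild type. The difference from wild type was -0.063 for DPY-27(EQ)::GFP and -0.085 for DPY-27::GFP (exact permutation p = 0.2 and adjusted p = 0.3 for each). With both transgenic strains together it was -0.074 (exact permutation p = 0.0952, 6 libraries against 3). Replicate 2 of DPY-27::GFP carried the lowest value, and without it the difference of that strain from wild type was -0.041.

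Marker genes of embryo stage varied between libraries beside these values, and the labels do not record stage itself. Of the late-embryo genes, hlh-1 had a count of 0 in every library but 54.88 to 96.04 TPM, so a count of 0 in these tables does not show that a gene was silent. Autosomal late-embryo genes, 21 of 23 tested, deviated by 0.26, -0.08 and 0.33 on the log2 scale in DPY-27(EQ)::GFP, by 0.03, 0.62 and -0.22 in DPY-27::GFP and by -0.23, -0.13 and -0.45 in wild type. Maternal and oocyte genes, 25 of 26 tested, deviated by -0.55, -0.10 and -0.21 in DPY-27(EQ)::GFP, by -0.22, -0.93 and 0.35 in DPY-27::GFP and by 0.46, 0.06 and 0.97 in wild type. The lowest late-embryo value and the highest maternal value were both in wild-type replicate 3, and the reverse held for DPY-27::GFP replicate 2, whose right X value of 0.085 was above those of all wild-type libraries. Their part in the right X values was not tested.

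Along the chromosome, the windows of 1 Mb behaved much like the whole. The 6 windows from the boundary outward held 100, 118, 134, 106, 89 and 71 tested genes. The 6 transgenic libraries stood above the 3 wild-type libraries by 0.125, 0.032, 0.065, 0.1003 and 0.038 in the first 5 windows, and below them by 0.065 in the last, from 17 Mb to the chromosome end. No window passed the exact permutation test over libraries after adjustment over the 6 windows (lowest adjusted p 0.446). With 6 libraries against 3, a window that moved alone could reach an adjusted p of only 0.0714, so this test could not call a single window.

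In the last window DPY-27(EQ)::GFP libraries had 0.039, -0.098 and 0.076, DPY-27::GFP libraries -0.017, 0.025 and -0.134, and wild-type libraries 0.029, 0.096 and 0.017. It was the only window in which all 3 wild-type libraries lay above 0, and transgenic libraries overlapped them. In the first window the wild-type values were -0.064, -0.0020 and -0.195, all below 0, against 0.095, -0.050 and 0.133 in DPY-27(EQ)::GFP and 0.057, 0.101 and -0.108 in DPY-27::GFP.

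**Figure D2:**
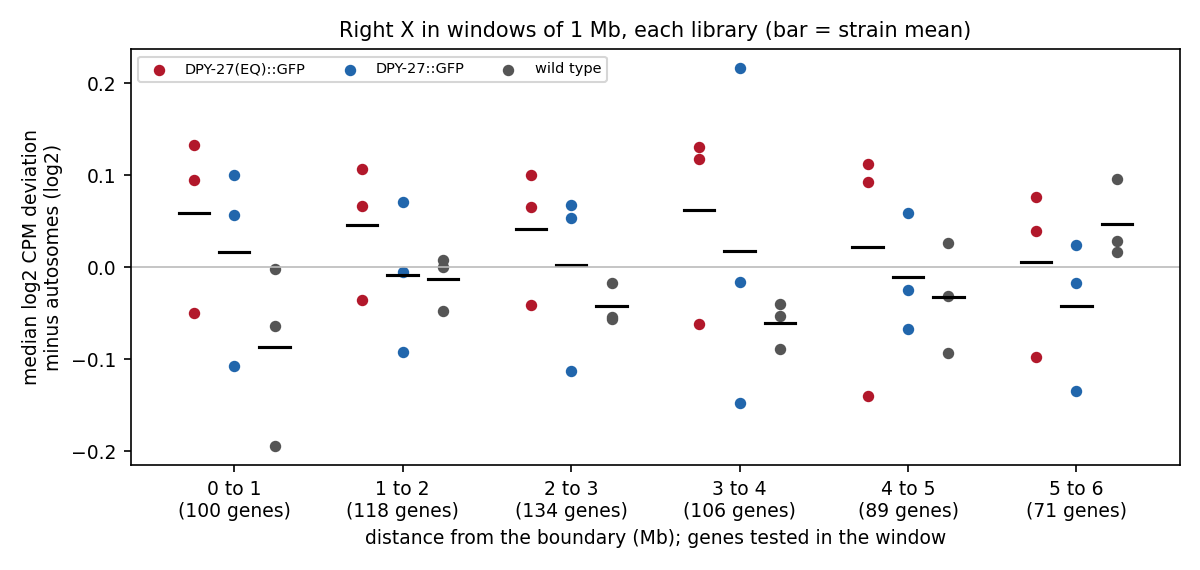
Median log2 CPM deviation minus autosomal genes for right X genes in 6 windows of 1 Mb, ordered by distance from the boundary, in each library (points) with the strain mean (bar). Strain means differ by at most 0.146, in the first window, and libraries of 1 strain spread as widely.

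Running medians over 0.5 Mb, taken every 0.1 Mb and read as a description, reached 0.228 in DPY-27::GFP against wild type at 0.75 Mb from the boundary (44 genes). For DPY-27(EQ)::GFP against wild type they reached 0.183 at 2.55 Mb (66 genes) and -0.107 at 5.35 Mb (49 genes). Neighbouring windows share genes, and both comparisons share the wild-type libraries.

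**Figure D3:**
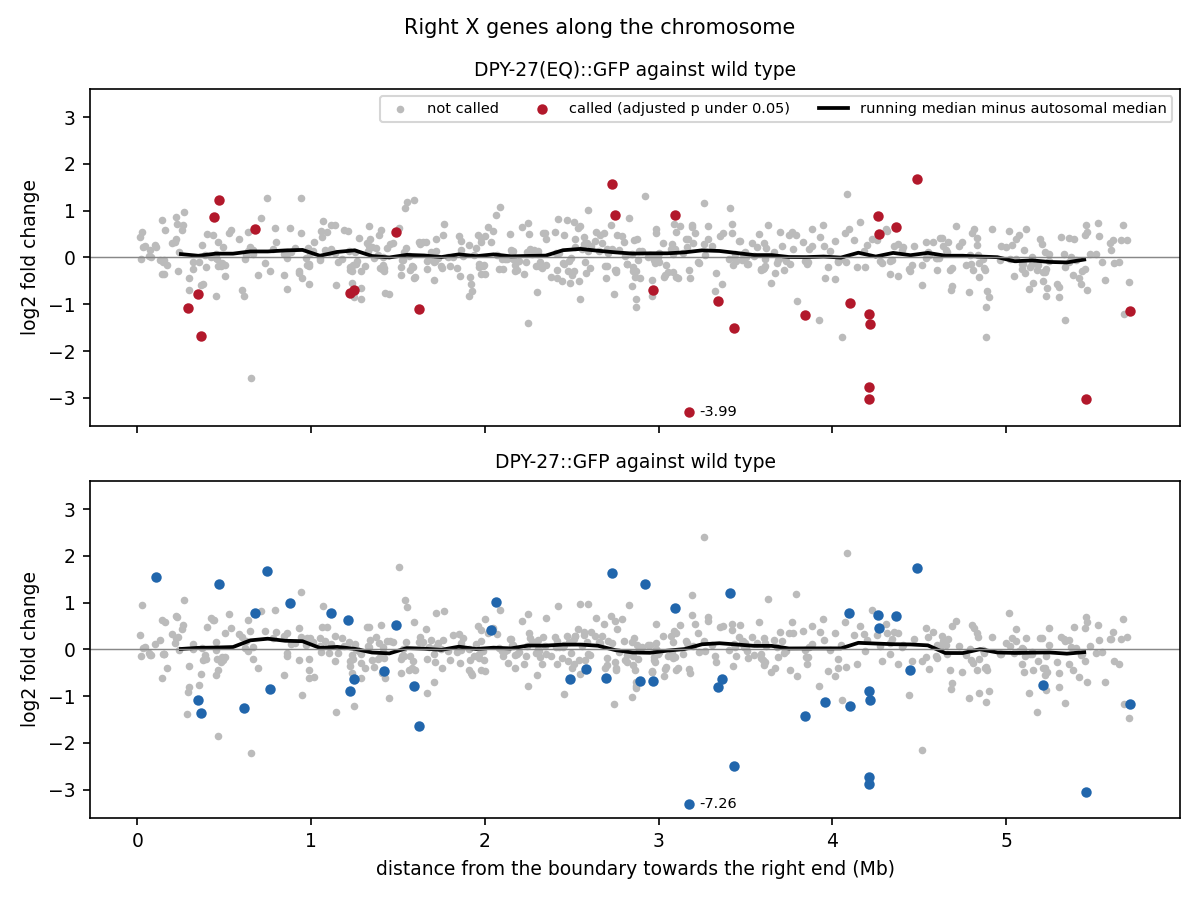
Fitted log2 fold change of the 618 right X genes by distance of the gene start from the boundary, with genes called by edgeR in colour and the running median over 0.5 Mb (relative to autosomal genes) as a line. The line stays between -0.107 and 0.228 over the whole region, while single called genes scatter on both sides, and 1 gene beyond the axis, col-41, is drawn at the edge with its fitted value.

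Single right X genes were called in both directions, at shares close to or below those of all genes tested. For DPY-27(EQ)::GFP against wild type, 11 members (1.78%) were called higher at an edgeR adjusted p under 0.05, where 1.88% of all genes tested were, and 18 members (2.91%) were called lower, where 4.98% of all genes tested were. In DPY-27::GFP against wild type, 19 members (3.07%) were called higher, where 3.23% of all genes tested were, and 29 members (4.69%) were called lower, where 7.11% of all genes tested were. Fold changes of members centred near 0 in both, with a median of 0.015 in DPY-27(EQ)::GFP (-0.049 for autosomal genes) and 0.0084 in DPY-27::GFP (-0.024 for autosomal genes). Of the members, 9 were called higher and 17 called lower in both comparisons, which share the wild-type libraries. The same counts were not taken over all genes tested, so these do not set right X apart.

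The counts of calls depended on single libraries and on the fit. Without DPY-27::GFP replicate 3, 79 members were called higher and 47 called lower for DPY-27::GFP against wild type. Over all 13425 genes tested these counts were 1511 and 1649. Without wild-type replicate 1 the counts were 0 and 13 among members, and 59 and 365 over all genes tested. Leaving out a library left between 0 and 5 higher and between 7 and 12 lower calls for DPY-27(EQ)::GFP against wild type. Over all genes tested it left between 19 and 111 higher and between 219 and 406 lower calls. DESeq2 called 48 members higher in DPY-27::GFP and 43 higher in DPY-27(EQ)::GFP, beside 998 and 695 of all genes tested. The library name prefix as a term can be estimated only from DPY-27(EQ)::GFP, the only strain with both prefixes, where replicate 3 alone is LAS. With it in the fit, 0 higher and 1 lower call remained in DPY-27::GFP, and 0 higher and 2 lower calls in DPY-27(EQ)::GFP. Over all genes tested, 1 higher and 37 lower calls remained in DPY-27::GFP, and 11 higher and 107 lower calls in DPY-27(EQ)::GFP.

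Lower calls held better than higher ones. Of the lower calls among the named genes, 6 of 13 in DPY-27(EQ)::GFP and 9 of 15 in DPY-27::GFP held when each replicate was left out in turn. Of the higher calls among them, 0 of 9 in DPY-27(EQ)::GFP and 0 of 13 in DPY-27::GFP held in this way. The lower calls include col-41, which passed the filter only through wild type and held in this way in DPY-27::GFP alone. In TPM, strain means differed in the same direction as in counts for every called member of both comparisons. Libraries also did not overlap in TPM for 11 of the 11 higher and 17 of the 18 lower calls in DPY-27(EQ)::GFP, and for 16 of the 19 higher and 22 of the 29 lower calls in DPY-27::GFP. In CPM, 217 of the 589 members not called in DPY-27(EQ)::GFP and 117 of the 570 not called in DPY-27::GFP did not overlap wild type either. Counts of this kind, in TPM or CPM, were not taken over all genes tested, so they do not set right X apart. Genes named for the smallest adjusted p were taken only from those without overlap, so their lack of overlap is no further support.

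The member with the smallest adjusted p in both comparisons was slc-17.1, which fell and whose name places it among the solute carrier family 17 transporters (X, 17460088 to 17464892). It had 34.3, 29.3 and 34.3 CPM in DPY-27(EQ)::GFP and 30.4, 32.8 and 31.9 CPM in DPY-27::GFP, against 247, 277 and 269 CPM in wild type. Every transgenic library lay far below every wild-type library. The log2 fold change came to -3.02 ± 0.13 (SE) in DPY-27(EQ)::GFP (edgeR adjusted p 3.69e-08) and -3.06 ± 0.13 in DPY-27::GFP (edgeR adjusted p 2.92e-08).

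Both slc-17.1 calls held with the name prefix as a term, at -2.94 in DPY-27(EQ)::GFP (edgeR adjusted p 5.46e-05) and -2.95 in DPY-27::GFP (edgeR adjusted p 0.000415). That term rests on DPY-27(EQ)::GFP replicate 3, with 0.083 unannotated reads per gene read against 1.04 to 1.09 in wild type. It therefore cannot adjust for that difference. The span of slc-17.1 overlaps by 618 bp that of mlc-1, a myosin regulatory light chain gene on the opposite strand that received 5.03 times as many reads. Methods written for another strain describe stranded libraries, and the strand setting of the counting is not given in the sources used here. Reads of the 2 genes may therefore be mixed. Levels of mlc-1 were 730, 489 and 682 CPM in DPY-27(EQ)::GFP and 553, 866 and 471 CPM in DPY-27::GFP, against 368, 413 and 388 CPM in wild type.

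Some other lower calls also had a neighbour on the opposite strand. A gene on the other strand overlapped 82 of the 618 members (13.3%), compared with 21.5% of tested autosomal genes. It overlapped 5 of the 18 lower and 1 of the 11 higher calls in DPY-27(EQ)::GFP, and 8 of the 29 lower and 2 of the 19 higher calls in DPY-27::GFP. Among members not called in DPY-27::GFP it overlapped 72 of 570. Refitted on genes with no such overlap, the lower calls numbered 10 in DPY-27(EQ)::GFP and 17 in DPY-27::GFP. Over all genes, lower calls numbered 264 and 472 in that refit, against 669 and 954 in the reported fit. Unannotated reads were also 1.04 to 1.09 per gene read only in wild type, and the part of either in the lower calls was not tested.

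Another lower call with such an overlap was col-41, a cuticle collagen gene whose whole span lies opposite ucr-2.2, which received 200 times as many reads. It had 0, 0.105 and 0.0958 CPM in DPY-27(EQ)::GFP (0, 1 and 2 reads) and 0 reads in all 3 DPY-27::GFP libraries, against 1.78, 1.34 and 0.997 CPM in wild type. Taking a floor of 3 reads in each library, col-41 was at least 3.76-fold lower in the DPY-27::GFP strain than in wild type. It passed the filter on low counts only through the wild-type libraries, where it was high, and was the 1 called member of which this was true, so its call is given as a description and without its p. Floors cover counting error only.

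A run of 4 short neighbouring genes fell in both strains, a grouping noticed after their values were seen. R11.4, F23A7.4, F23A7.8 and F23A7.1 lie within 7.35 kb (X, 16210247 to 16217594), with spans of 228 to 468 bp, no other listed gene between them and no opposite-strand overlap. F23A7.4 had 3.42, 4.73 and 2.64 CPM in DPY-27(EQ)::GFP and 2.05, 2.40 and 5.65 CPM in DPY-27::GFP, against 21.9, 22.9 and 27.8 CPM in wild type. Its log2 fold change came to -2.78 ± 0.33 in DPY-27(EQ)::GFP (edgeR adjusted p 0.000338) and -2.88 ± 0.34 in DPY-27::GFP (edgeR adjusted p 0.000333), and no transgenic library reached any wild-type one.

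F23A7.8 was one of the more abundant members per length and varied more between replicates. It had 5.00, 20.4 and 7.57 CPM in DPY-27(EQ)::GFP and 8.30, 5.00 and 27.97 CPM in DPY-27::GFP, against 74.7, 90.6 and 102 CPM in wild type. The log2 fold change came to -3.03 in DPY-27(EQ)::GFP and -2.73 in DPY-27::GFP (edgeR adjusted p 0.00863 and 0.0121). R11.4 changed less, with 22.9, 25.9 and 29.1 CPM in DPY-27(EQ)::GFP and 32.9, 23.1 and 42.5 CPM in DPY-27::GFP, against 59.5, 51.9 and 70.5 CPM in wild type. The log2 fold changes of F23A7.1 were -1.41 in DPY-27(EQ)::GFP (edgeR adjusted p 0.0209) and -1.07 in DPY-27::GFP (edgeR adjusted p 0.0478). The F23A7.4 call held without each replicate in turn in both strains, and that of R11.4 did so in DPY-27(EQ)::GFP. With the name prefix as a term, F23A7.4 kept its call in DPY-27(EQ)::GFP and lost it in DPY-27::GFP (edgeR adjusted p 0.0589). R11.4 and F23A7.8 lost theirs in both strains. Leaving out DPY-27(EQ)::GFP replicate 3 took the F23A7.8 call of that strain to an edgeR adjusted p of 0.0692, and leaving out DPY-27::GFP replicate 1 or wild-type replicate 3 took that of the other strain to at most 0.0751.

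Other lower calls included 3 that held without each replicate in turn in both strains. The first was serp-1.1, with 216, 157 and 200 CPM in DPY-27(EQ)::GFP and 130, 170 and 203 CPM in DPY-27::GFP, against 371, 481 and 491 CPM in wild type (log2 fold changes -1.23 and -1.42, edgeR adjusted p 0.00233 and 0.00076). It was not among the genes with no opposite-strand overlap that were refitted. The second was skr-21, of the Skp1-related family of ubiquitin ligase adaptors, with 135, 138 and 120 CPM in DPY-27(EQ)::GFP and 119.1, 107 and 132 CPM in DPY-27::GFP, against 222, 223 and 218 CPM in wild type. The third was cTel55X.1, the last gene of the table before the right telomere (X, 17714889 to 17718641), with 54.9, 51.8 and 71.1 CPM in DPY-27(EQ)::GFP and 53.1, 48.1 and 75.1 CPM in DPY-27::GFP, against 109, 134 and 151 CPM in wild type. In all 3 genes every transgenic library lay below every wild-type library, as the rule for naming them required. With the name prefix as a term, all 3 lost their calls in both strains (edgeR adjusted p 0.0622 to 0.503). ZK1073.2 and Y12A6A.1 fell in both strains as well, by 0.97 and 1.101 on the log2 scale in DPY-27(EQ)::GFP and by 1.22 and 1.63 in DPY-27::GFP, and each overlaps a gene on the opposite strand. In DPY-27(EQ)::GFP the Y12A6A.1 call was lost whichever replicate was left out (edgeR adjusted p 0.0623 to 0.157) and that of ZK1073.2 held in 2 of 6 cases (edgeR adjusted p up to 0.105), while both held in every case in DPY-27::GFP.

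flwr-1, the worm relative of the fly synaptic vesicle protein Flower, had 97.9, 110 and 111.6 CPM in DPY-27(EQ)::GFP and 113, 96.7 and 120 CPM in DPY-27::GFP, against 171, 161 and 190 CPM in wild type. It fell by 0.70 on the log2 scale in DPY-27(EQ)::GFP (edgeR adjusted p 0.0081) and by 0.67 in DPY-27::GFP (edgeR adjusted p 0.00968). Transgenic and wild-type libraries did not overlap, which the rule for naming flwr-1 required in DPY-27(EQ)::GFP. Its call was lost without DPY-27(EQ)::GFP replicate 1 (edgeR adjusted p 0.0579) and, in DPY-27::GFP, without wild-type replicate 3 (edgeR adjusted p 0.0531).

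One of the genes called higher in both strains was myo-2, the myosin heavy chain of pharyngeal muscle (X, 12467231 to 12475273). It had 671, 365 and 563 CPM in DPY-27(EQ)::GFP and 556, 945 and 290 CPM in DPY-27::GFP, against 223, 245 and 212 CPM in wild type. All transgenic libraries lay above wild type, but those of DPY-27::GFP spread over 290 to 945 CPM. The log2 fold change came to 1.23 ± 0.34 in DPY-27(EQ)::GFP (edgeR adjusted p 0.0477) and 1.40 ± 0.34 in DPY-27::GFP (edgeR adjusted p 0.0241).

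The replicates with most myo-2, DPY-27(EQ)::GFP replicate 1 and DPY-27::GFP replicate 2, were also those with the lowest maternal deviation of their strain. DPY-27::GFP replicate 2 also had the highest late-embryo deviation of its strain. In DPY-27(EQ)::GFP that was highest in replicate 3, at 0.33 against 0.26 in replicate 1. The part of stage in these values was not tested. The myo-2 call was lost in DPY-27(EQ)::GFP whichever replicate was left out (edgeR adjusted p 0.0556 to 0.215), and in DPY-27::GFP without any replicate but its replicate 3 (edgeR adjusted p up to 0.125).

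mua-6 and ifa-3, a pair of intermediate filament genes lying within 7.76 kb of each other (X, 16262221 to 16269983), were both called higher in both strains. mua-6 had 102, 82.9 and 97.8 CPM in DPY-27(EQ)::GFP and 72.1, 122 and 62.6 CPM in DPY-27::GFP, against 50.8, 54.6 and 48.3 CPM in wild type. ifa-3 had 187, 186 and 179 CPM in DPY-27(EQ)::GFP and 173, 179 and 186 CPM in DPY-27::GFP, against 131, 151 and 109 CPM in wild type. Transgenic and wild-type libraries did not overlap for either gene, which the rule for naming mua-6 required in DPY-27(EQ)::GFP. The log2 fold change of ifa-3, chosen after its value was seen, was 0.50 in DPY-27(EQ)::GFP (edgeR adjusted p 0.0436) and 0.46 in DPY-27::GFP (edgeR adjusted p 0.0469), and that of mua-6 was 0.88 (edgeR adjusted p 0.0313) and 0.74 (edgeR adjusted p 0.0459). The mua-6 call was lost in DPY-27(EQ)::GFP whichever replicate was left out (edgeR adjusted p 0.059 to 0.168). In DPY-27::GFP it was lost without any replicate but replicate 3 of that strain (edgeR adjusted p up to 0.18).

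Further higher calls spread over unrelated roles. adt-1, a secreted metalloprotease of the ADAMTS family, had 92.4, 68.4 and 83.9 CPM in DPY-27(EQ)::GFP and 95.2, 102 and 76.7 CPM in DPY-27::GFP, against 52.7, 60.4 and 47.1 CPM in wild type. ace-1, an acetylcholinesterase, had 27.8, 20.3 and 24.2 CPM in DPY-27(EQ)::GFP and 23.5, 29.4 and 22.5 CPM in DPY-27::GFP, against 14.9, 16.18 and 14.9 CPM in wild type. sad-1, a kinase of synapse assembly and neuronal polarity, had 70.5, 63.5 and 76.95 CPM in DPY-27(EQ)::GFP and 68.3, 78.4 and 61.3 CPM in DPY-27::GFP, against 47.6, 51.2 and 46.8 CPM in wild type. For all 3 the wild-type libraries lay below every transgenic library, as the rule for naming them required.

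The largest fold among higher calls in both strains was that of cah-3, a carbonic anhydrase family gene, with 11.1, 4.83 and 9.77 CPM in DPY-27(EQ)::GFP and 6.86, 14.9 and 4.93 CPM in DPY-27::GFP, against 2.93, 2.86 and 2.28 CPM in wild type (log2 fold changes 1.67 and 1.74, edgeR adjusted p 0.0313 and 0.0207). F33C8.4 rose by a similar factor from few reads, with log2 fold changes of 1.57 in DPY-27(EQ)::GFP and 1.64 in DPY-27::GFP. F09B12.3 rose by 0.90 and 0.89 on the log2 scale in the same 2 comparisons. C05G5.3 was called higher in DPY-27(EQ)::GFP alone of the comparisons (0.92, edgeR adjusted p 0.0276) and stood at 0.60 in DPY-27::GFP (edgeR adjusted p 0.0989), while the strains themselves were not called different. pgp-14, an ABC transporter gene, was called in DPY-27::GFP (1.67, edgeR adjusted p 0.028) and stood at 1.26 in DPY-27(EQ)::GFP (edgeR adjusted p 0.0879).

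**Figure D4:**
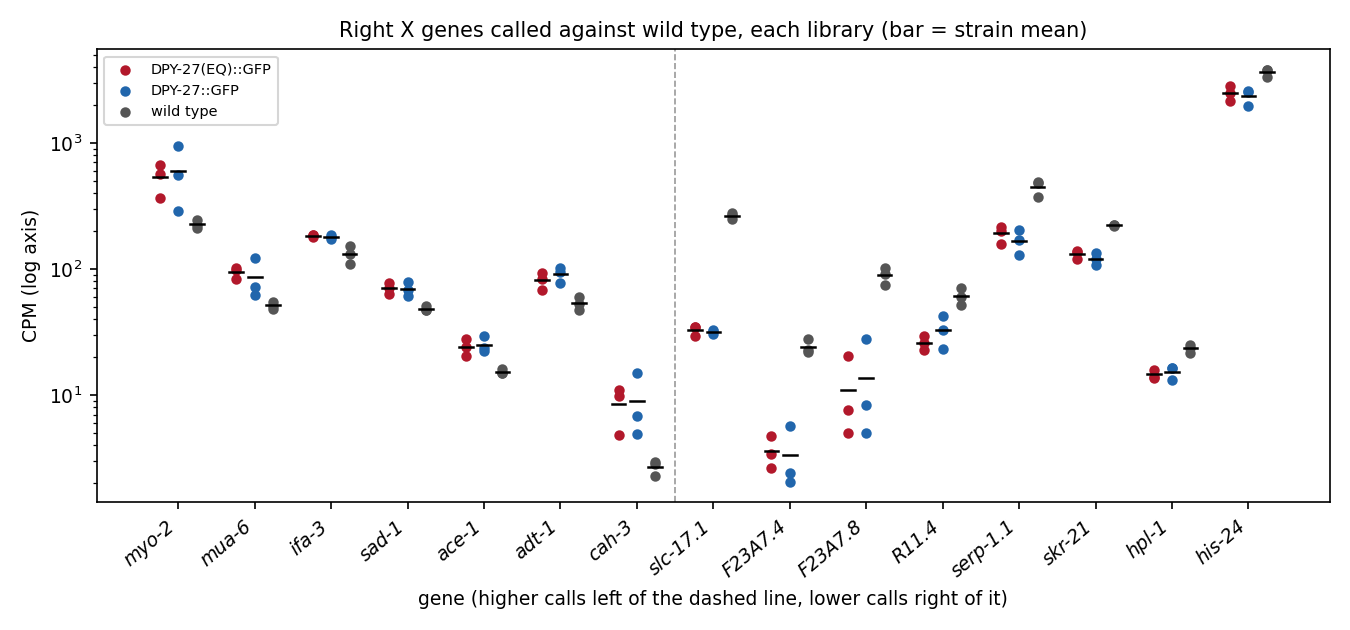
CPM (log axis) of 15 called right X genes in each library (points) with the strain mean (bar), DPY-27(EQ)::GFP, DPY-27::GFP and wild type side by side for each gene. All 6 transgenic libraries lie above wild type in the 7 genes at the left and below it in the 8 genes at the right, and the distance is widest for slc-17.1, at 29.3 to 34.3 CPM against 247 to 277 CPM. The genes were picked with their values known, most by a rule that required no overlap, so this separation is no further support.

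By role, 4 of 5 right X muscle genes had positive fold changes in each strain, with 1 call. Of 5 tested, 1 was called higher and 0 lower in each strain, where 1.88% and 3.23% of all genes tested were called higher, and the list's median log2 fold change stood at 0.70 for DPY-27(EQ)::GFP and 0.53 in DPY-27::GFP (all genes tested, -0.030 and -0.013). The called gene was myo-2. The adjacent regulatory light chain genes mlc-1 and mlc-2 stood at 0.70 and 0.48 in DPY-27(EQ)::GFP and at 0.69 and 0.45 in DPY-27::GFP without passing the test. pat-9, a zinc finger regulator of body wall muscle, stood at -0.0017 and -0.16.

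Genes of neurons, synapses and gap junctions had a median log2 fold change of 0.41 in DPY-27(EQ)::GFP, with 1 of 8 called higher, and of 0.42 in DPY-27::GFP, with 2 of 8 called higher. Over all genes tested 1.88% and 3.23% were called higher and the medians were -0.030 and -0.013. None of the 8 was called lower in either strain. Beside sad-1, the second call was unc-9, an innexin gap junction gene, with 58.4, 53.9 and 61.6 CPM in DPY-27(EQ)::GFP and 62.5, 72.4 and 44.8 CPM in DPY-27::GFP, against 41.9, 37.4 and 37.6 CPM in wild type (log2 fold changes 0.57 and 0.62, edgeR adjusted p 0.0603 and 0.0367). syg-2, an immunoglobulin-family synapse guidance gene, stood at 0.15 in both and cab-1 at 0.30 and 0.32, none passing the test. The late-embryo autosomal list deviated above 0 in 4 of the 6 transgenic libraries and 0 of the 3 wild-type ones, and their part in the muscle and neuron values was not tested.

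Cuticle collagen and related cuticle genes had a median of 0.52 in DPY-27(EQ)::GFP, with 0 of 9 called higher and 1 called lower, and of 0.57 in DPY-27::GFP, with 1 called in each direction. Of all genes tested, 1.88% were called higher and 4.98% lower in DPY-27(EQ)::GFP, and 3.23% and 7.11% in DPY-27::GFP. The lower call was col-41, which passed the filter only through wild type, and the higher one col-181, which had 1.18, 1.68 and 0.527 CPM in DPY-27(EQ)::GFP and 3.01, 3.199 and 1.59 CPM in DPY-27::GFP, against 0.764, 1.09 and 0.854 CPM in wild type. These are low levels. More abundant members did not pass the test: col-182 stood at 0.55 in DPY-27(EQ)::GFP and 0.64 in DPY-27::GFP, mlt-9 at 0.53 and 0.34, and the cuticlin-like gene cutl-3 at 0.01 and -0.11.

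Ion channel and receptor genes were mostly low, and 20 of the 52 listed were tested. In DPY-27(EQ)::GFP 0 were called, at a median of 0.33, with 5 of 20 (25%) at an unadjusted edgeR p under 0.05, near the 26% of all genes tested. In DPY-27::GFP 2 of 20 (10%) were called higher, where 3.23% of all genes tested were, at a median of 0.18. They were lgc-21, a ligand-gated channel gene with 61.2, 89.5 and 32.5 CPM against 29.6, 31.9 and 29.8 CPM in wild type, and npr-40, a neuropeptide receptor family gene with 6.38, 11.995 and 3.19 CPM against 3.44, 2.43 and 2.37 CPM. The strains overlapped for npr-40. lgc-25 stood at 0.09 in both strains, and npr-21 at -0.56 and -0.44, without passing the test.

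The 25 transcription factor and chromatin genes centred on 0, with medians of -0.010 in DPY-27(EQ)::GFP and -0.0055 in DPY-27::GFP. 1 was called lower in the first comparison and 2 (8%) in the second, near the 4.98% and 7.11% of all genes tested, and 0 higher in each. hpl-1, a heterochromatin protein 1 gene, had 15.9, 13.8 and 13.99 CPM in DPY-27(EQ)::GFP and 16.24, 13.1 and 16.23 CPM in DPY-27::GFP, against 23.7, 21.7 and 24.8 CPM in wild type (log2 fold changes -0.69 and -0.63, edgeR adjusted p 0.0283 and 0.0326). Its groups did not overlap, yet the hpl-1 call was lost in DPY-27(EQ)::GFP whichever replicate was left out (edgeR adjusted p 0.0567 to 0.144), and in DPY-27::GFP without any but replicate 3 of that strain (edgeR adjusted p up to 0.152).

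his-24, the most abundant member per length, had 2469, 2152 and 2805 CPM in DPY-27(EQ)::GFP and 2566, 1974 and 2545 CPM in DPY-27::GFP, against 3354, 3788 and 3768 CPM in wild type. It fell by 0.62 on the log2 scale in DPY-27::GFP (edgeR adjusted p 0.0269) and stood at -0.55 in DPY-27(EQ)::GFP (edgeR adjusted p 0.0509), with transgenic libraries below wild type in both. In TPM the distance was smaller, at 3604 ± 429 in DPY-27(EQ)::GFP and 3554 ± 659 in DPY-27::GFP, against 4002 ± 119.05 in wild type (SD, n = 3 each). The chromatin remodeller chd-3 stood at 0.08 and 0.28 and the nuclear receptor nhr-1 at 0.08 and -0.08, without passing the test. sdc-1, itself a gene of the dosage compensation complex that lies on right X, had 111, 129.5 and 119.5 CPM in DPY-27(EQ)::GFP and 159, 97.1 and 145 CPM in DPY-27::GFP, against 122, 123 and 134 CPM in wild type (edgeR adjusted p 0.817 and 0.797). It was named for its role after its values were seen.

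Metabolic and detoxification genes had medians slightly below 0, at -0.16 in DPY-27(EQ)::GFP and -0.11 in DPY-27::GFP, over 22 tested. 1 was called lower in DPY-27(EQ)::GFP, and 1 higher and 2 lower in DPY-27::GFP. The shares called lower were near the 4.98% and 7.11% of all genes tested. Beyond slc-17.1 and pgp-14, the call was acdh-7, an acyl-CoA dehydrogenase gene, with 198, 179 and 215 CPM in DPY-27::GFP against 317, 336 and 356 CPM in wild type (log2 fold change -0.77, edgeR adjusted p 0.0166). DPY-27(EQ)::GFP had 229, 183 and 304 CPM of it (-0.49, edgeR adjusted p 0.0974). Its neighbour acdh-10 stood at -0.32 in DPY-27(EQ)::GFP and -0.39 in DPY-27::GFP, and the V-ATPase subunit family gene vha-20 at 0.14 and 0.07.

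Of 7 neuropeptide genes, 1 was called lower in each strain and 0 higher, where 4.98% and 7.11% of all genes tested were called lower. This was flp-32, of the FMRFamide-like peptides, with 1.18, 1.26 and 1.77 CPM in DPY-27(EQ)::GFP and 0.361, 0.4998 and 1.45 CPM in DPY-27::GFP, against 3.65, 5.17 and 3.61 CPM in wild type (log2 fold changes -1.4996 and -2.48, edgeR adjusted p 0.0359 and 0.0053). The flp-32 call was lost in DPY-27(EQ)::GFP whichever replicate was left out (edgeR adjusted p 0.0974 to 0.136) and held in every case in DPY-27::GFP. nlp-76, nlp-53 and nlp-67 stood at 0.08, 0.33 and 0.14 in DPY-27(EQ)::GFP and at -0.21, 0.17 and 0.34 in DPY-27::GFP.

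None of 13 signalling genes was called by edgeR in either strain, with 5 (38.5%) at an unadjusted p under 0.05 in DPY-27(EQ)::GFP and 4 (30.8%) in DPY-27::GFP, where 26% and 27.5% of all genes tested were. rab-14 stood at -0.23 and -0.34, the casein kinase gene kin-20 at 0.06 and -0.04, and osm-11, a secreted Notch co-ligand gene, at -0.43 and -0.60. Nor was either of the 2 matrix genes called: let-2 had 4050, 2960 and 3821 CPM in DPY-27(EQ)::GFP and 3803, 4182 and 3471 CPM in DPY-27::GFP, against 2963, 3357 and 2610 CPM in wild type (log2 fold changes 0.28 and 0.36, edgeR adjusted p 0.291 and 0.169), and the glypican gpn-1 stood at -0.13 and 0.05. At an unadjusted edgeR p under 0.05 there were 0 matrix genes in DPY-27(EQ)::GFP and 1 in DPY-27::GFP. No gene of the translation list lies on right X.

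**Figure D5:**
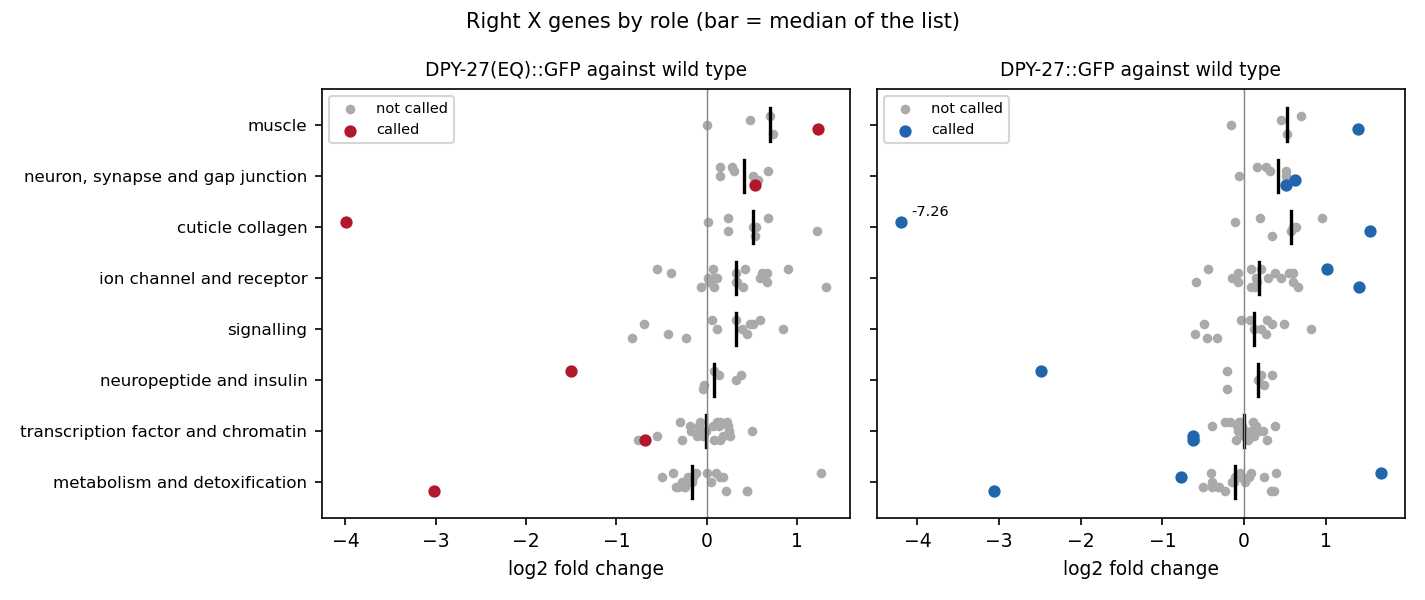
Fitted log2 fold change against wild type of right X genes in 8 role lists, DPY-27(EQ)::GFP at the left and DPY-27::GFP at the right, with genes called by edgeR in colour and the list median as a bar. Medians run from -0.16 (metabolism and detoxification) to 0.70 (muscle) in DPY-27(EQ)::GFP and from -0.11 to 0.57 (cuticle collagen) in DPY-27::GFP, and most genes of every list were not called.

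Apart from his-24, the other most abundant members per length that have not been described were ain-1, cytb-5.1, C05G5.7 and F59C12.4. ain-1 had 1072, 984 and 1074 CPM in DPY-27(EQ)::GFP and 1166, 922 and 1238 CPM in DPY-27::GFP, against 985, 1108 and 1061 CPM in wild type, so the 3 strains overlapped. cytb-5.1, a cytochrome b5 gene, stood at a log2 fold change of -0.36 in DPY-27(EQ)::GFP and -0.47 in DPY-27::GFP, and F59C12.4 at -0.26 and -0.19. C05G5.7 had at most 7.83 CPM in any library and ranks high per length because its span is short (X, 14743600 to 14743711).

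The ATPase mutant and the intact fusion could not be told apart on right X at this depth. edgeR called 0 of 618 members in either direction, as DESeq2 did, where 0.0% of all genes tested were called. At an unadjusted p under 0.05 there were 7 members, and 136 genes among all tested. The median member stood 0.034 higher on the log2 scale in DPY-27(EQ)::GFP than in DPY-27::GFP, and 567 members (91.7%) differed by less than 0.5. The median standard error of these differences was 0.23, so a difference of that size in a single gene lay within the error.

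The 3 members with the smallest p were all low, and each had an edgeR adjusted p of 1. T18D3.5 had 0.395, 1.05 and 0.719 CPM in DPY-27(EQ)::GFP, against 0.120, 0.2999 and 0 CPM in DPY-27::GFP (log2 fold change 2.17). col-181 had 1.18, 1.68 and 0.527 CPM in DPY-27(EQ)::GFP, against 3.01, 3.199 and 1.59 CPM in DPY-27::GFP (log2 fold change -1.31), and its libraries overlapped between the strains. C53C11.2 had 0.263, 0.315 and 0.287 CPM in DPY-27(EQ)::GFP, against 0.722, 1.30 and 0.435 CPM in DPY-27::GFP (log2 fold change -1.53).

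At the boundary itself, sma-5, a MAP kinase gene that starts just outside it (X, 11997456 to 12005024), had 82.0, 77.4 and 79.7 CPM in DPY-27(EQ)::GFP and 78.8, 91.0 and 68.7 CPM in DPY-27::GFP, against 52.3, 57.1 and 52.4 CPM in wild type. The first tested gene inside, nmat-1 (X, 12014185 to 12016108), a gene of NAD synthesis, had 1.18, 0.735 and 0.910 CPM in DPY-27(EQ)::GFP and 0.361, 1.499 and 0.580 CPM in DPY-27::GFP, against 0.934, 0.852 and 0.285 CPM in wild type. sma-5 was called in both strains and nmat-1 in neither.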

How the data were processed

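The authors deposited raw counts of reads per gene for each library, and TPM values per gene with WS220 positions. Per the methods, which are written for another strain, stranded single-end reads were aligned to WS220 with Tophat and counted with HTSeq. Submitters' notes name HTSeq 0.6.1p1, Cufflinks 2.2.0, CASAVA 1.8 and DESeq2. Rows that name no gene held 12.8% to 21.2% of reads in the DPY-27(EQ)::GFP libraries, 12.6% to 13.5% in those of DPY-27::GFP and 55.2% to 58.2% in those of wild type, and were left out. The deposited TPM values were not a fixed rescaling of the counts in wild type: over 386 members with 30 or more counts everywhere, log2(TPM/count), centred per gene and per library, had an SD of 0.175 to 0.182 there, against 0.023 to 0.076 in the transgenic libraries. Deposited tables of the authors' comparisons (mean signal, log2 fold changes, p-values) were not used. How TPM was computed is not given in the sources used here.

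Counts were normalized with TMM and all 13425 genes and 9 libraries fitted with edgeR 4.0.16 (glmQLFit, glmQLFTest, Benjamini-Hochberg over all genes, limma 3.58.1, R 4.3.3). log2 CPM used a prior count of 2. Regions were compared over libraries by exact permutation (numpy 2.4.6, pandas 2.3.3). Symbols and strand came from the WBcel235 annotation by sequence name: 604 of 618 members had a WormBase identifier and 339 a symbol. No sequence is shown.

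Members and role lists were chosen with earlier results of these data known. Named genes were the 8 called in each direction with the smallest adjusted p and no overlap between strains, the 10 with highest TPM, the 3 with the smallest p between transgenic strains, called or top-3 members of each role list, and the genes flanking the boundary. Other filters, normalizations, references, boundaries, fits and replicates left out were tried. DESeq2 1.42.0 was 1 alternative. On simulated counts of 13425 genes for DPY-27::GFP against wild type, a shift of 0.3 was estimated as 0.292, and 50% of genes changed by a log2 fold change of 1, and 100% changed by 2, were called, as were 10 unchanged autosomal genes. The simulation gave every gene the same dispersion and took the changed genes from those above the median level. It held no stage difference between libraries, so these figures do not give the power or error in the real libraries.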

Additional observations from a re-analysis of the deposited data

How the results depend on the processing

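The right X shift of DPY-27::GFP against wild type ranged between -0.022 and 0.088 when a replicate was left out, and was -0.027 and -0.025 with TPM (pseudocounts 1 and 0.1) and -0.037 with chromosome V as reference. For DPY-27(EQ)::GFP against wild type the shift, 0.078 in the report, was 0.051 to 0.131 without a replicate, 0.014 and 0.024 with TPM (pseudocounts 1 and 0.1) and -0.0035 with chromosome V. For both strains against wild type the shift was 0.034 to 0.081 without a replicate, -0.0067 and -0.00054 with TPM (pseudocounts 1 and 0.1) and -0.020 with chromosome V. DPY-27(EQ)::GFP relative to DPY-27::GFP gave -0.012 (without DPY-27::GFP replicate 3) to 0.1002 (without DPY-27(EQ)::GFP replicate 2) for the shift, and -0.031 to 0.037 (without DPY-27::GFP replicates 2 and 3 in turn) for right X against the rest of the X. The causes were not tested.

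Higher calls in DPY-27::GFP, 19 in the report, were 29 with no filter, 48 by DESeq2, 4 with the 2 strains fitted alone, 8 with the replicate block, 0 with the name prefix and 0 to 79 without a replicate (0 without wild-type replicate 1 or 3, 2, 6 and 79 without DPY-27::GFP replicates 1, 2 and 3, and 3 without wild-type replicate 2). Its 29 lower calls were 17 with the 2 strains alone, 19 with the block, 1 with the prefix, 17 without opposite-strand overlaps (an alternative chosen after seeing the data) and 10 to 47 without a replicate. In DPY-27(EQ)::GFP the 11 higher calls were 7 with 10 counts required in every library, 18 with no filter, 43 by DESeq2, 80 with the 2 strains alone, 5 with the block, 0 with the prefix, 6 without opposite-strand overlaps and 0 to 5 without a replicate. Its 18 lower calls were 29 by DESeq2, 43 with the 2 strains alone, 2 with the prefix, 10 without overlaps and 7 to 12 without a replicate (7 without DPY-27(EQ)::GFP replicate 3). The largest of these counts came with large counts over all genes tested. For DPY-27::GFP without its replicate 3, 1511 genes were called higher and 1649 lower. For DPY-27(EQ)::GFP with the 2 strains alone, 1497 were called higher and 1568 lower. Over all genes tested, the 434 higher calls in DPY-27::GFP were 582 with no filter, 128 with the 2 strains alone and 259 with the block. Its 954 lower calls were 559 with the 2 strains alone, 769 with the block and 472 without overlaps. Likewise, in DPY-27(EQ)::GFP the 252 higher calls were 177 with 10 counts everywhere, 370 with no filter, 173 with the block and 132 without overlaps. Its 669 lower calls were 1035 by DESeq2 and 264 without overlaps. Between the transgenic strains 0 members were called under every alternative. For the 50 calls among named genes, 450 of 681 settings kept the call and 231 lost it. Over the 124 named values not called, 34 settings gave a call, and 0 settings reversed a call.

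Equal replicate numbers were not taken to pair the libraries, since the labels give no shared day or culture and not every pair's correlation was over 0.1. Same-numbered deviations correlated at 0.0716, 0.359 and 0.415 for DPY-27::GFP and wild type, and below 0.1 for the other comparisons, although each DPY-27::GFP and wild-type library correlated best with its own number in 3 of 3 cases. The block left the shifts as they were. Depth limits the least expressed members, since DPY-27::GFP libraries had at most 9582838 gene reads.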
